A study of Mus musculus with 2 samples.

Results

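Among the cancer cells of KPCA.FSTKO omental tumors, a subset carried high levels of Ifitm1 and Lbp. Its cells also had more Cst6, Kitl and Sox9, while Cited2 differed least, at 1.34 times its level in the remaining cells. They were chosen as the 10% of gated cells with the highest share of UMIs (unique molecular identifiers, each counting 1 captured transcript) from these 6 genes, which gave 231 of 2311 gated cells and left 2080 cells for comparison. The 2311 cells are those of 6777 filtered KPCA.FSTKO barcodes in which Krt7, Krt8, Krt18 and Krt19 made up at least 0.1% of UMIs. They also had at least 5000 UMIs, no UMI of the leukocyte gene Ptprc or the endothelial gene Pecam1, and 8 proliferation genes under 0.1% of UMIs. The chosen cells are called Ifitm1/Lbp-high cells below, since these 2 genes differed most, and the 2080 remaining cells are called the other cancer cells.

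KPCA is a mouse ovarian cancer line, labelled as fallopian tube epithelium, with mutant Trp53 and overexpressed Ccne1 and Akt2. KPCA.FSTKO cells derive from a single KPCA clone and lack Fst, which encodes the activin antagonist follistatin, and KPCA.FSTKO_hFSTL3 cells are a single clone of KPCA.FSTKO that secretes human FSTL3 from a plasmid kept under geneticin, so both lines share the Fst deletion. Tumors were grown in C57Bl6J mice, taken at day 10 post-graft, and 4 tumors per genotype were pooled into 1 droplet library. With 1 library per genotype nothing below was tested, and the 95% intervals (exact Poisson for UMI sums, conditional binomial for ratios, Clopper-Pearson for shares) cover counting error only.

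The 6 genes belong to different systems. Lbp encodes the lipopolysaccharide-binding protein, an acute-phase protein that hands bacterial lipid to CD14. Ifitm1 encodes an interferon-induced membrane protein, Cst6 a cystatin that inhibits legumain and lysosomal cathepsins, and Sox9 an HMG-box transcription factor of progenitor and duct cells. Kitl encodes stem cell factor, the ligand of the receptor tyrosine kinase KIT, and Cited2 a coregulator that competes with HIF-1 for CBP and p300.

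The windows before the transcription start are shown for 4 genes, to put letters beside the genes that carried the difference. Ifitm1 contributed most to the choice, Kitl was the only 1 of the 3 marker genes with a window (Ifitm1, Kitl and Cited2) to hold a motif match, and Pilra and Lcn2 were among the 15 genes outside the 6 with the largest ratios. Each window holds the 250 bases before the RefSeq start (GRCm38.p6), printed 5′ to 3′ on the gene's strand with motif matches in capitals. They lie at chr7:140967826-140968075 (plus strand), chr10:100015571-100015820 (plus strand), chr5:137836279-137836528 (minus strand) and chr2:32387740-32387989 (minus strand).
Ifitm1: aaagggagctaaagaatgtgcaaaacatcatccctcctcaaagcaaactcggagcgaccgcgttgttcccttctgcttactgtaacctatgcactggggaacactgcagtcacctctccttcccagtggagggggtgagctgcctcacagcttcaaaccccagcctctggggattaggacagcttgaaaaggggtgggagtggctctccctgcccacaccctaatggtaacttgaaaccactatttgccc
Kitl: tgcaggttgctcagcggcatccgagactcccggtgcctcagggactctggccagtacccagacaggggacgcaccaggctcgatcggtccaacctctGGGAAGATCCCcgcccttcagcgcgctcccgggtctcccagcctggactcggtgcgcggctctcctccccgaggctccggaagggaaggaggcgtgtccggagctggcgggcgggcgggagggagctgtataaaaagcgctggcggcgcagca
Pilra: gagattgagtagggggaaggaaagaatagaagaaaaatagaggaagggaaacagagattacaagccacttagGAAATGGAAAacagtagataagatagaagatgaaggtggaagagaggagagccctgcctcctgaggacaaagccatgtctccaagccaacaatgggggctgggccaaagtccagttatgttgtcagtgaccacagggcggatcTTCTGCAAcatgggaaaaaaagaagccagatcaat
Lcn2: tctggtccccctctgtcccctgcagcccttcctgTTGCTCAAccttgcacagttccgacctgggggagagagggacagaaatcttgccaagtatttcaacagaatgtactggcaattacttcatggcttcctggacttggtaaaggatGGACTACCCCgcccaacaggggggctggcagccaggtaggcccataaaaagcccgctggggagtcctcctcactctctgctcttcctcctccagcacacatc
Searched on both strands were TTCNNNGAA for STAT factors, TTGCNNAA for C/EBP factors, GGG and TCC with any 4 bases between them for NF-kB, and GAAA repeated after any 2 bases for the interferon response. The Kitl window held GGGAAGATCC and, 1 base further and on the other strand, GGAAGATCCC, which overlap. The Pilra window held the interferon letters GAAATGGAAA and the C/EBP letters TTCTGCAA, and the Lcn2 window held the C/EBP letters TTGCTCAA and the NF-kB letters GGACTACCCC. The Ifitm1 and Cited2 windows held none of the 4, and the windows of Lbp, Cst6 and Sox9 were not analysed here. The Ifitm1 and Lcn2 windows lie inside the annotated genes (140967221 to 140969825 and 32384633 to 32388252). These 2 windows hold the bases before a RefSeq start and not those before the outermost annotated start. Most of the Kitl window, with its motif matches, also lies inside the annotated gene (100015630 to 100100416). Of all 32851 windows, 7.02% held the STAT letters, 9.56% the C/EBP letters, 16.5% the NF-kB letters and 2.98% the interferon letters. Windows were at hand for 12 of the 15 named higher genes, and 0, 2, 6 and 1 of these held the 4 motifs, respectively. For the 15 named lower genes, 14 had a window and 2, 3, 2 and 0 held them. These counts are per gene, over any of its windows, and Ace and Nebl have several. The counts therefore cannot be set directly against the shares of all windows. Among the 6 higher genes with NF-kB letters were Hba-a1 and Hba-a2, whose windows are nearly the same sequence. A match describes letters and does not show a bound site.

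The 6 genes made up a median of 0.340% of a cell's UMIs in the Ifitm1/Lbp-high cells and 0.0851% in the other cancer cells. The chosen cells ranged from 0.280% to 0.786%, while the other cancer cells ranged from 0, in 36 cells, to 0.279%. The distribution had no gap at the threshold, with 60 chosen and 75 other cells lying within 10% of it, so the cells are the upper end of a range. A UMI of all 6 genes was found in 107 of the 231 cells and in 351 of the 2080.

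**Figure D1:**
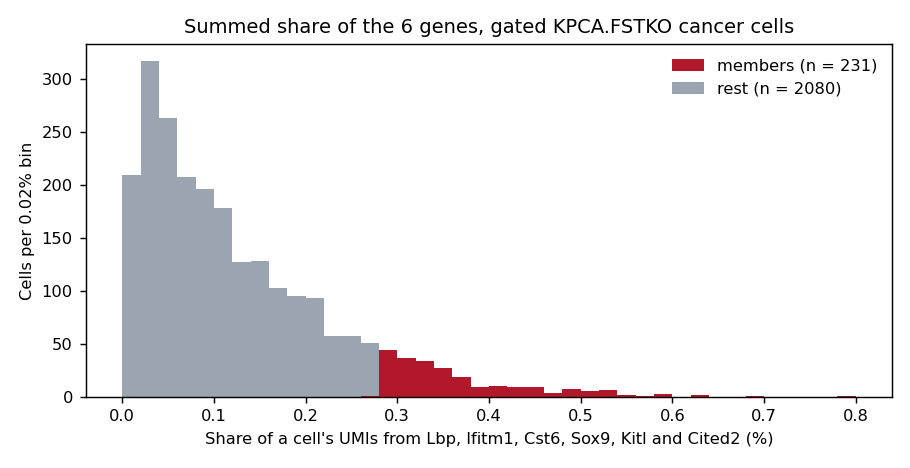
Histogram of the share of each cell's UMIs (%, x axis) that came from the 6 genes, with cells per bin on the y axis, for the 231 Ifitm1/Lbp-high cells (red) and the 2080 other cancer cells (grey). The shares run without a gap across the threshold, from 0 to 0.786%.

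Because these values chose the cells, they are given as a description. Ifitm1 (chromosome 7 of GRCm38, 140967221 to 140969825) was at 1883 CPM (the gene's summed UMIs scaled to the population's total) against 328 CPM, a ratio of 5.75 (95% interval 5.62 to 5.88). Per 10000 UMIs of a cell, its median was 18.1 in the Ifitm1/Lbp-high cells and 0.951 in the other cancer cells, whose upper quartile of 4.75 lay below the lower quartile of 10.9 in the chosen cells. Ifitm1 supplied 52.0% of the 6 genes' UMIs and was the leading gene in 167 of the 231 cells, so that the choice rested on it more than on any other gene.

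Lbp (chromosome 2, 158306493 to 158332852) was at 565 CPM against 118 CPM, a ratio of 4.80 (4.61 to 5.00), with a median per 10000 UMIs of 4.40 against 0.328. It led the 6 genes in 27 cells and had no UMI in 18 of the 231. Cst6 (chromosome 19, 5344705 to 5349574) was the scarcest of the 6, at 109 against 28.3 CPM, a ratio of 3.85 (3.52 to 4.21), and 83 of the 231 cells had no Cst6 UMI.

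Kitl (chromosome 10, 100015630 to 100100416) was at 440 against 171 CPM, a ratio of 2.58 (2.47 to 2.69), and led in 18 cells. Sox9 (chromosome 11, 112782224 to 112787760) was at 490 against 257 CPM, a ratio of 1.91 (1.83 to 1.99), and also led in 18 cells. A Sox9 UMI was found in 89.6% of the Ifitm1/Lbp-high cells and 86.9% of the other cancer cells, so Sox9 was common to both and only its level differed. Cited2 (chromosome 10, 17723218 to 17725674) was at 133 against 98.8 CPM, a ratio of 1.34 (1.25 to 1.45), under the size of 1.5 used below, and led in 0 cells.

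Each gene was then read in cells chosen on the 5 other genes, which leaves its own counts out of the choice. Chosen without Lbp, the cells had 359 CPM of Lbp against 134 CPM, a ratio of 2.67 (2.55 to 2.79). Chosen without Cst6, the Cst6 ratio was 2.96 (2.68 to 3.26), and chosen without Ifitm1, which kept only 117 of the 231 cells, the Ifitm1 ratio was 1.75 (1.69 to 1.81). As counted, Lbp, Cst6 and Ifitm1 were thus each more than 1.5 times higher in cells that the 5 other genes had picked. Kitl lay at that size, with 278 against 185 CPM and a ratio of 1.503 (1.43 to 1.58). The ratio was for Sox9 1.32 (1.26 to 1.38) and for Cited2 1.09 (1.003 to 1.18). With every cell first thinned to 5000 UMIs the ratios were 2.14 for Lbp, 2.53 for Cst6, 1.49 for Ifitm1, 1.31 for Kitl, 1.17 for Sox9 and 1.01 for Cited2 (0.827 to 1.21). Over the 2311 thinned cells, all of 1 library, the correlations of pairs ranged from r = -0.04, for Ifitm1 with Cited2, to 0.21, for Lbp with Ifitm1, and Sox9 had 0.13 with Lbp and 0.05 with Ifitm1.

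Levels in other cells of the same library give the background. In 811 macrophages, gated on Ptprc and C1q genes, Lbp was at 32.4 CPM, Ifitm1 at 32.4 CPM, Sox9 at 18.6 CPM and Kitl at 22.9 CPM. Thinned to 5000 UMIs, 9.14% of macrophages had a Lbp UMI, against 76.2% of the Ifitm1/Lbp-high cells and 30.0% of the other cancer cells. Before thinning these shares were 18.7%, 92.2% and 57.9%, at median depths of 13286, 23912 and 29889 UMIs, and 56 macrophages under 5000 UMIs were left out of the thinned share. The other cancer cells thus lay above the macrophage level for Ifitm1, Lbp, Cst6, Sox9 and Kitl. Cited2 and Ifitm1 were less particular to cancer cells. Cited2 was at 76.9 CPM in macrophages. In 311 leukocytes other than the gated macrophages Ifitm1 was at 527 CPM, above its 328 CPM in the other cancer cells. The 492 cycling cells that the limit on proliferation genes kept out had 71.6 CPM of Lbp, 382 CPM of Ifitm1 and 218 CPM of Sox9, closer to the other cancer cells than to the Ifitm1/Lbp-high cells.

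Kitl was also present in 82 endothelial cells, at 232 CPM. Its receptor gene Kit had 0 UMIs in the Ifitm1/Lbp-high cells, which allows up to 0.504 CPM (3 counts), and 3 UMIs in the other cancer cells. It was at 210 CPM in endothelial cells and 53.8 CPM in leukocytes other than the gated macrophages. The cancer cells thus had the ligand transcript with almost no receptor transcript.

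**Figure D2:**
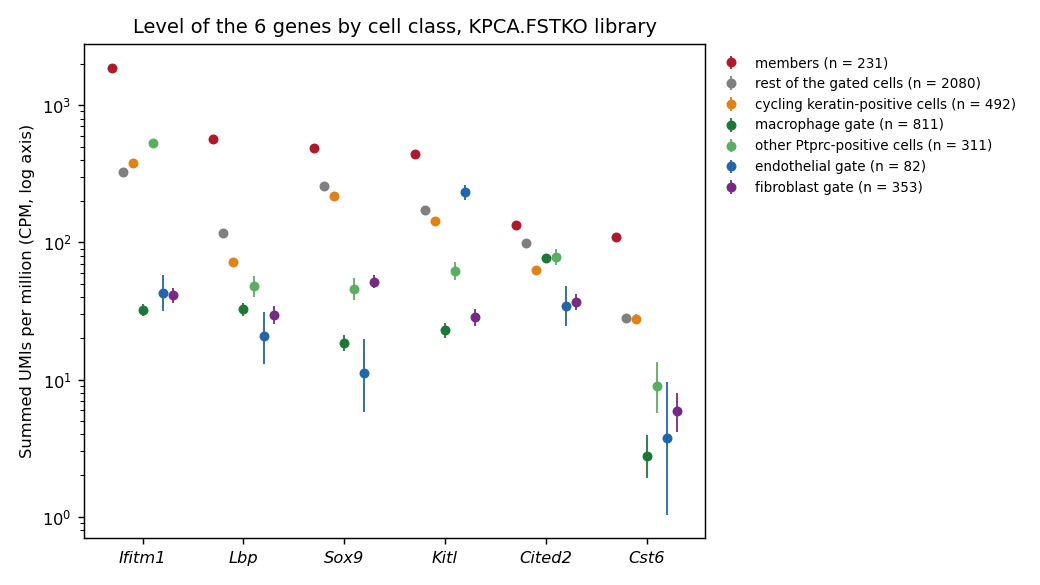
Level of each of the 6 genes (CPM, log axis) in 7 cell classes of the KPCA.FSTKO library, with exact Poisson 95% intervals of the UMI sums. All 6 were highest in the Ifitm1/Lbp-high cells, which were chosen on them, and Cited2 ranged least, from 34.6 to 133 CPM.

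The cells carried the keratins the gate asks for. Krt19 was at 1097 CPM in the Ifitm1/Lbp-high cells and 1193 CPM in the other cancer cells, against 35.4 CPM in macrophages, and Msln, made by these tumor cells and by mesothelium, was at 621 and 576 CPM. Of 10 mesothelial genes, 3 had enough UMIs for the size rule below, with Wnt10a higher (2.22) and 0 lower. Upk3b, Lrrn4, Gpm6a, Rspo1 and Muc16 had 0 UMIs in the Ifitm1/Lbp-high cells and 21 to 45 UMIs in the other cancer cells, too few to compare. Ccne1, overexpressed in the line, was at 3.53 CPM in the Ifitm1/Lbp-high cells, 5.26 CPM in the other cancer cells and 11.5 CPM in the cycling cells, against 4.17 CPM in macrophages. Myofibroblast genes were lower in the Ifitm1/Lbp-high cells (summed over 8 genes, 21.5 against 81.7 CPM), as were 18 pancreatic acinar genes (30.8 against 67.4 CPM). Summed macrophage genes were at 88.4 and 97.8 CPM, and summed fibroblast genes at 1144 and 760 CPM. The fibroblast sum was mostly Col3a1, and without it the list was at 88.4 and 176 CPM. Of the 7 tested genes of the full list, 4 were lower and 1, Col3a1, was higher. Of the neutrophil, T and NK cell, B cell and endothelial lists, 0 genes reached 200 UMIs over both populations. The part of RNA from other cells in the gene differences below was not tested beyond leaving out cells with UMIs of 2 or more marker genes of other types, which gave 391 higher and 1264 lower genes by the size rule below.

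The Ifitm1/Lbp-high cells were shallower, with a median of 23912 UMIs and 4875 genes against 29889 UMIs and 5582.5 genes. With the gated cells in 3 classes of depth, the shallowest, middle and deepest class held 113, 78 and 40 of the 231. The median mitochondrial share was 3.88% against 3.48%. Of the chosen cells 1.73% had a doublet score in the top 5% of the library, against 5.34% of the other cancer cells, and doublets were kept. Of 12 barcode sequences found in both libraries, 1 belonged to a chosen cell.

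A CPM ratio of at least 1.5 in either direction, in genes with at least 200 UMIs over both populations, was taken as the size to report. This minimum was met by 10954 genes outside the 6. The Ifitm1/Lbp-high cells had 357 of them (3.26%) higher and 1411 (12.9%) lower, with a median log2 ratio of -0.12 over all of them. Scaling by TMM, the trimmed mean of M-values, moved every log2 ratio by 0.09 and gave 518 higher and 1066 lower genes, so that the higher genes made up 32.7% of those past the size in place of 20.2%. Without the single barcode that held most UMIs of each gene, 21 of the higher and 60 of the lower genes were no longer past the size. With cells chosen without Ifitm1, 757 genes were higher and 1118 lower, and 228 of the 357 and 770 of the 1411 were among them.

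The 15 named higher genes had ratios from 2.77 to 4.13. Pilra, which encodes an immunoglobulin-like receptor known from myeloid cells, was at 27.1 against 6.56 CPM, a ratio of 4.13 (3.42 to 4.95). Aspa, encoding aspartoacylase, was at 57.7 against 14.3 CPM (ratio 4.02, 3.55 to 4.56), and Prelp, a matrix proteoglycan of the leucine-rich repeat family, at 67.8 against 18.1 CPM (3.75, 3.34 to 4.20). Trf, the iron carrier transferrin, had the highest level of the group, at 182 against 49.0 CPM (3.71, 3.46 to 3.97). Thinned to 5000 UMIs, a Trf UMI was found in 37.7% of the Ifitm1/Lbp-high cells and 14.5% of the other cancer cells, so that it was neither in all of the first nor missing from the second.

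Cldn2, a claudin of leaky epithelia, was at 102 against 30.3 CPM (3.36, 3.07 to 3.68). Ace, Igfbp5, Nebl, Cd38, Nbl1 and Aldh3a1 had ratios between 2.77 and 3.08. Lcn2, the siderophore-binding lipocalin, was at 37.5 against 12.5 CPM (interval of the ratio 2.58 to 3.49). Its ratio was 3.58 without the 1 barcode of the other cancer cells that held 133 of its UMIs. A Lcn2 UMI was found in only 12.6% against 8.61% of cells. The log2 ratio of Lcn2 was -0.56 among cells with keratins at 0.3% of UMIs or more. The hemoglobin genes Hba-a1 and Hba-a2 also met the rule (3.21 and 3.11), on few cells. Of 3942 hemoglobin UMIs in the Ifitm1/Lbp-high cells, 3828 were in 1 cell, and without it their summed hemoglobin was at 19.3 CPM against 128 CPM in the other cancer cells without their own leading cell.

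The lower genes were led by Prl2c2, a placental prolactin-family gene with close copies that the counting may split, at 1.51 against 25.2 CPM (ratio 0.0600, 0.0274 to 0.114). Grem1, a secreted antagonist of bone morphogenetic proteins, was at 2.86 against 25.9 CPM (0.110, 0.0642 to 0.177). Pdlim1, an actin-associated adaptor, was at 4.54 against 36.8 CPM (0.123, 0.0810 to 0.180). Nrcam, Acan, Bnc2 and Plcl1, among them the adhesion molecule NrCAM and the proteoglycan aggrecan, had ratios of 0.145, 0.149, 0.149 and 0.156. Smooth-muscle actin Acta2 was at 10.8 against 59.3 CPM (0.181, 0.139 to 0.232), the stromelysin Mmp3 at 9.08 against 41.6 CPM (0.218) and carbonic anhydrase Car9 at 5.21 against 23.9 CPM (0.218). Rgs10, Col1a2, Bgn, Wincr1 and Acsbg1 completed the 15, with ratios from 0.238 to 0.272. For Bgn the share of cells with a UMI differed less than the level, at 10.8% (7.13 to 15.6%) against 13.2% (11.7 to 14.7%) after thinning. The 15 lower genes were minor in both populations. After thinning, the share of the other cancer cells with a UMI ranged from 5.24% for Col1a2 to 18.8% for Wincr1.

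When the choice of cells or the counting was changed in 26 ways, 11 of the 15 higher genes stayed above a ratio of 1 in every case in which a value could be computed, the exceptions being Hba-a1, Hba-a2, Lcn2 and Nebl, and all 15 lower genes stayed below 1. Not all kept their size: the smallest log2 ratio among these 11 higher genes was 0.091, for Aldh3a1. Among the lower genes the one nearest to 0 was -0.058, for Col1a2. With cells chosen without Ifitm1, 13 of the 15 higher and 14 of the 15 lower genes remained past a ratio of 1.5. The log2 ratio of Nebl was then -0.13.

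The expression profile without the 6 genes was used to ask whether the Ifitm1/Lbp-high cells lay together. Among the 20 nearest neighbours of a chosen cell, a mean of 29.7% were chosen cells, against 7.86% for the other cancer cells and 10.0% over all gated cells. With 30 principal components in place of 10 the mean was 30.8%, and with cells thinned to 5000 UMIs it was 27.1%. Most neighbours of a chosen cell were therefore other cancer cells, and 8 of the 231 had no chosen neighbour at all.

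Of 10 clusters of the gated cells, 4 held nearly all Ifitm1/Lbp-high cells. Cluster 3 held 87 of its 383 cells (22.7%, 18.6 to 27.2%), cluster 2 held 50 of 255 (19.6%), cluster 1 held 50 of 340 (14.7%) and cluster 8 held 35 of 261 (13.4%), while clusters 5 and 9 held 0 of 253 and 0 of 91. Sox9 and Kitl were highest in the chosen cells of cluster 3, at 601 and 598 CPM, and lowest in those of cluster 8, at 164 and 91.2 CPM. Ifitm1 was at 1364 CPM in the chosen cells of cluster 3 and 2536 CPM in those of cluster 8, values that the ranking on the 6 genes' sum ties to each other. In the other cells of clusters 1, 2, 3 and 8, Ifitm1 was at 590, 512, 516 and 320 CPM, lowest in cluster 8, as were Sox9 and Kitl. Cluster 8 stood apart in quality, with a median of 13087 UMIs and with Malat1, a nuclear RNA, at 842 CPM against 8520 to 20752 CPM in the other clusters, and the part of this in its values was not tested.

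The named genes, picked for their ratios in these same cells, were also read within clusters. Of the 15 higher genes, 15, 14, 14 and 13 had a ratio above 1 within clusters 1, 2, 3 and 8, respectively, with median ratios of 2.20, 2.28, 1.82 and 3.49. The exceptions were Hba-a2 in clusters 2 and 8 (0 UMIs in the chosen cells), Hba-a1 in cluster 8 (0.0387) and Lcn2 in cluster 3 (0.911). Trf had within-cluster ratios of 1.88, 1.29, 1.79 and 5.14, and Cldn2 of 1.63, 2.57, 1.94 and 4.19. The lower genes were below 1 for 13, 12, 15 and 15 of the 15, with median ratios of 0.364, 0.502, 0.609 and 0.351. The exceptions were Acta2 (1.14) and Bgn (1.08) in cluster 1 and Nrcam (1.59), Rgs10 (1.42) and Acan (1.14) in cluster 2.

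**Figure D3:**
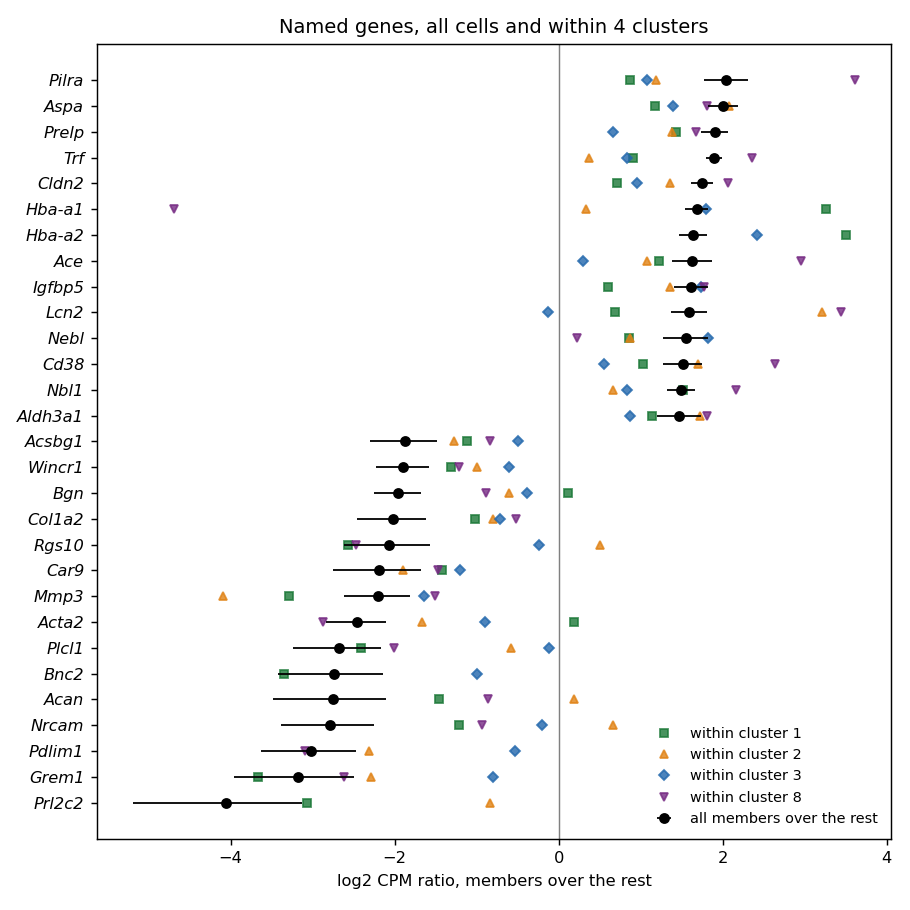
log2 CPM ratio (x axis) of the named genes reported here (y axis), Ifitm1/Lbp-high cells over the other cancer cells, over all cells (black, bars are 95% counting intervals) and within clusters 1, 2, 3 and 8 (coloured marks, no mark where the chosen cells had 0 UMIs). Most coloured marks lie on the same side of 0 as the black point. Pilra, Prelp, Trf, Cldn2, Ace, Igfbp5, Lcn2, Cd38, Nbl1 and Aldh3a1 had their largest within-cluster ratio in cluster 8. Some of these rest on few UMIs, such as Pilra (14 against 8) and Ace (10 against 9).

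Gene lists of the systems to which the 6 genes belong were counted in the same way, to be read against the 3.26% higher and 12.9% lower over all genes. The lists were compiled with results on these cells known and support no direction. In the list of lipopolysaccharide recognition and acute phase, 5 of 17 genes besides Lbp were higher and 1 lower, with a median log2 ratio of 0.36. Cebpd, a C/EBP factor of the acute phase, was at 129 against 54.6 CPM (ratio 2.37, 2.19 to 2.56), and Socs3, the feedback inhibitor of STAT3 signalling, at 245 against 123 CPM (1.99, 1.89 to 2.11). Complement C3 was at 89.4 against 51.8 CPM (1.73), and Cd14, which receives lipid from Lbp, at 37.2 against 23.8 CPM (1.56). The acute-phase gene Saa3 was the lower one, at 5.72 against 15.6 CPM (0.367), and Stat3 (1.30) and Tlr4 (0.916) were under the size. The acute-phase genes therefore did not differ as a block.

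Among 18 genes of the NF-kB response, 2 were higher and 2 lower. The chemokine gene Cxcl15 was at 19.0 against 5.38 CPM (3.53, 2.83 to 4.38) and Cxcl5 at 43.9 against 25.1 CPM (1.75), while Icam1 (0.620) and Csf1 (0.635) were lower. Of 8 complement genes 3 were higher, among them C3 and C4b, and Serping1, the C1 inhibitor, and Cd59a, a membrane inhibitor of complement lysis, were lower. Serping1 had 1 UMI in the Ifitm1/Lbp-high cells and 339 in the other cancer cells.

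The 26 interferon-stimulated genes besides Ifitm1 parted into groups, with 6 higher, 6 lower and a median log2 ratio of -0.04. Ifitm2 and Ifitm3, neighbours and close relatives of Ifitm1, were at 1004 against 519 CPM (1.93, 1.88 to 1.99) and 1694 against 841 CPM (2.01, 1.97 to 2.06). Class I antigen presentation was represented by H2-D1, at 732 against 364 CPM (2.01), H2-K1, at 382 against 242 CPM (1.58), and the immunoproteasome subunits Psmb8 (1.91) and Psmb9 (2.18), with B2m just under the size (1.47). The antiviral genes Ifit1, Ifit2, Ifit3, Isg15, Oasl2 and Gbp3 were lower. Ifit1 had 5 UMIs against 609, a ratio of 0.0922 (0.0298 to 0.216), and was found in 1.73% and 3.70% of the cells. Higher Ifitm genes and class I genes thus stood beside lower Ifit genes in the same population. H2-K1 with H2-D1, and the Ifitm and Ifit genes, have close copies between which the counting may have split reads.

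The partners of Cst6 were higher in part. Of 12 cystatins and cathepsins besides Cst6, 4 were higher and 0 lower, with a median log2 ratio of 0.34. Legumain Lgmn, a protease that Cst6 inhibits, was at 210.0 against 127 CPM (1.65, 1.55 to 1.75), and cathepsins Ctsb and Ctsh had ratios of 1.55 and 1.52, with Ctsz just at the size. Ctsl (1.21), Ctsd (1.07) and cystatin C, Cst3 (1.13), were under it.

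Other SOX genes were not higher. Of the 4 with enough UMIs 0 were past the size, and all 4 had ratios under 1, with Sox4 at 207 against 279 CPM (0.743, 0.700 to 0.787) and Sox5 at 64.2 against 94.0 CPM (0.683). In the list of progenitor and duct genes 3 of 17 were higher and 3 lower. Lgr5, a WNT-regulated receptor of stem cells, was at 50.8 against 23.6 CPM (2.15, 1.90 to 2.43), Ehf at 67.3 against 40.0 CPM (1.68) and Aldh1a3 at 18.8 against 12.3 CPM (1.53). Its relatives Lgr4 (0.215) and Lgr6 (0.515) were lower, and Cd44 was at 388 CPM in both populations. Spp1, encoding osteopontin, was the most abundant gene of the list, at 13272 against 9104 CPM (1.46, 1.45 to 1.47). Pax8, a Mullerian lineage factor, was at 2.19 against 10.2 CPM (0.214), the only 1 of 10 Mullerian genes past the size.

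Of 14 WNT targets and modulators, Wnt4 (2.28, 2.06 to 2.52), Lgr5 and Dkk3 (1.52) were higher, and Rnf43 (0.130) and Ccnd1 (0.658) lower. Among 15 EGFR ligands and receptors, Ereg was higher, at 31.6 against 14.8 CPM (2.13), whereas Areg, at 53.6 against 113 CPM (0.475), Tgfa and Nrg1 were lower. Among 16 YAP and TEAD targets, Ccn2 was higher, at 443 against 247 CPM (1.79), while Ankrd1 (0.353), Amotl2 (0.352) and F3 (0.607) were lower. In these lists single members differed in opposite directions.

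Of 8 growth factors and receptors related to Kitl, 0 were higher and Csf1 and Pdgfb were lower. Of 6 CITED family members and CITED2 partners, 0 were higher and Smad3 (0.648) was lower. Among 21 hypoxia genes, which CITED2 is known to restrain, Slc2a3 was higher and Car9 and Adm, at 33.6 against 63.8 CPM (0.527), were lower, with a median log2 ratio of -0.10. Among 9 Notch genes 0 were higher and Jag1 (0.410) and Nrarp lower.

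Immediate early and heat-shock genes, which respond within minutes to stimuli and to tissue dissociation, had 9 of 24 genes higher and 1 lower, with a median log2 ratio of 0.44. Fos was at 673 against 337 CPM (2.00, 1.93 to 2.06), Klf2 at 90.5 against 48.9 CPM (1.85) and Hspb1 at 702 against 384 CPM (1.83). Zfp36, Ier2, Nr4a1, Dusp1, Btg2 and Egr1 had ratios from 1.53 to 1.82, Jun, Junb and Atf3 lay between 1.35 and 1.37, and Hsp90aa1 was lower (0.650). In the 26 alternatives the median of this list ranged from 0.28 to 0.69. The part of dissociation in these values was not tested.

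Cells with many proliferation UMIs had been gated out. Of 18 S-phase genes 0 were higher and 8 lower, with a median log2 ratio of -0.53, among them Mcm2 (0.590), Mcm3 (0.603) and Mcm6 (0.569). Of the 8 proliferation genes of the gate, Mki67 (0.467), Cenpe (0.444) and Tpx2 (0.624) were lower. Ccne2 (0.351), Ccnd2 (0.571), Ccnd1 and Trp53 (0.626) were lower among 14 KPCA drivers and checkpoint genes, with 0 higher, and Akt2 (1.07) was under the size. Neither ribosomal protein genes (0 of 90) nor genes of the mitochondrial genome (0 of 13) passed the size in either direction.

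Epithelial and mesenchymal genes did not part by category. Krt20 was the only 1 of 6 keratins past the size, at 183 against 82.6 CPM (2.21, 2.07 to 2.36), and among 11 junction genes Jup was higher (1.70) while Dsp (0.388), Pkp2 (0.461), Cldn6 (0.615) and Epcam were lower. Epcam had 2 UMIs in 2 cells against 361 UMIs in 47 of 2080 cells, or 0.866% against 2.26% of cells. Of 21 mesenchymal genes, Tgfbi (2.49, 2.35 to 2.65), S100a4 (1.82) and Col3a1, at 1055 against 584 CPM (1.81), were higher, and Col1a1 (0.371), Col1a2, Acta2 and Tagln lower. The collagens Col3a1 and Col1a1 thus differed in opposite directions. Cluster 10, with 41 gated cells and 1 chosen cell, had 1764 CPM of Col1a1 in its other cancer cells. In those of the other clusters Col1a1 was at 5.62 to 96.2 CPM, and the part of cluster 10 in the Col1a1 ratio was not tested. Vim (0.923), Snai2 (0.972), Snai1 (1.13), Cdh1 (1.14) and Zeb1 (1.31) were all under the size.

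Of 22 matrix and adhesion genes, Thbs1 (1.92) and Col4a5 (1.59) were higher and 4 were lower, among them Tnc (0.328), Col7a1 and Itga3. Of 8 secreted genes used in ovarian cancer, Lcn2 and Cp, which encodes ceruloplasmin and was at 297 against 137 CPM (2.16, 2.05 to 2.28), were higher and Wfdc2, encoding HE4, at 290.0 against 505 CPM (0.574), and Muc1 lower.

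Of 21 activin and TGF-beta genes, Id1 (1.71) and Tgfb3 (1.56) were higher and Tgfb2 (0.545), Bmp4 and Fst lower. Fst, deleted in this line, had 13 UMIs against 403, a ratio of 0.362 (0.191 to 0.626), and mouse Fstl3 was at 13.3 against 13.5 CPM (0.984, 0.772 to 1.24). Inhba, encoding the activin A subunit, was at 45.2 against 64.4 CPM (0.702, 0.618 to 0.794), under the size, and Acvr2a did not differ beyond counting error (1.01, 0.847 to 1.19).

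**Figure D4:**
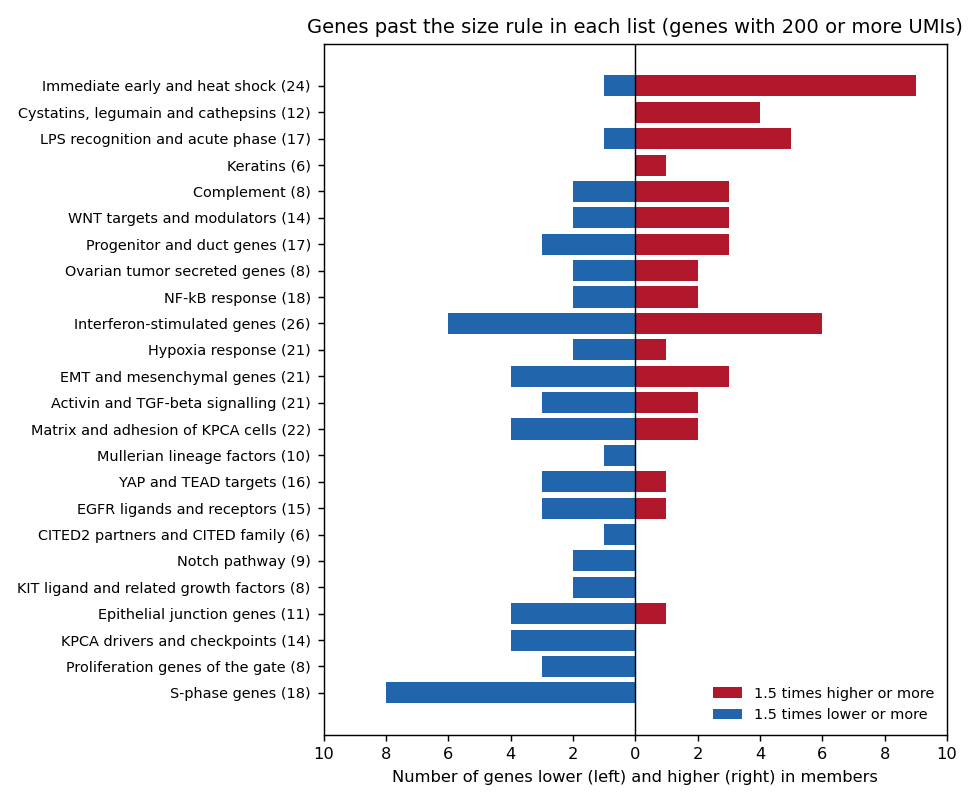
Number of genes at least 1.5 times lower (blue, to the left) or higher (red, to the right) in the Ifitm1/Lbp-high cells in 24 gene lists, with the genes that had 200 or more UMIs in brackets. Immediate early genes had the most higher genes, 9 of 24, and S-phase genes the most lower ones, 8 of 18.

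The same rule was applied to the KPCA.FSTKO_hFSTL3 library, where the top 10% of 1262 gated cells gave 126 cells. Their lowest share of the 6 genes was 0.0604% and their median 0.0746%, and only 1 of the 1262 cells (0.0792%) reached the lowest share of the KPCA.FSTKO cells, so the rule chose cells of a lower range. Lbp was at 17.3 CPM in these cells and Ifitm1 at 199.8 CPM, while Sox9 was at 429 CPM and was the leading gene by level. The Lbp level was thus below that of KPCA.FSTKO macrophages. Genotype and library cannot be told apart, and the human FSTL3 transgene was not analysed here.

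The remaining 1136 gated cells of that library carried RNA of other types, with 4364 CPM over 10 macrophage genes and 8027 CPM over 18 acinar genes, against 1216 and 2438 CPM in the 126 cells. Among the 8979 genes that met the minimum there, 2096 (23.3%) were higher in the 126 cells and 704 (7.84%) lower. Of the 214 genes higher in the KPCA.FSTKO cells with enough UMIs in both libraries, 38 were higher and 46 lower in the 126 cells, with a median log2 ratio of -0.02. Of 881 genes lower in KPCA.FSTKO, 134 were lower and 207 higher. Of all 8709 genes with enough UMIs in both libraries, 24.0% were higher and 5.09% lower there. The genes higher in KPCA.FSTKO were 17.8% higher and 21.5% lower, and the genes lower in KPCA.FSTKO 23.5% higher and 15.2% lower, so that both sets had a larger share of lower genes than all genes.

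Of the 15 named higher genes, Aspa and Nebl were higher in both libraries, with ratios of 2.68 and 1.66 in the second. Neither had enough UMIs once cells with RNA of other types were left out, where the ratio of Aspa was 0.162 or 4.51 and that of Nebl 0.173 or 0.470, depending on the limit. Cldn2 had a ratio of 4.42 on 88 UMIs, too few for the size rule. Limiting the second library to the 120 gated cells with macrophage and acinar genes under 0.1% of UMIs, an alternative chosen after seeing the data, left 12 chosen cells. Of the KPCA.FSTKO genes that could then be compared, 16 of 82 were higher and 9 lower, and 54 of 311 were lower and 24 higher, against 6.58% higher and 6.71% lower over all genes.

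**Figure D5:**
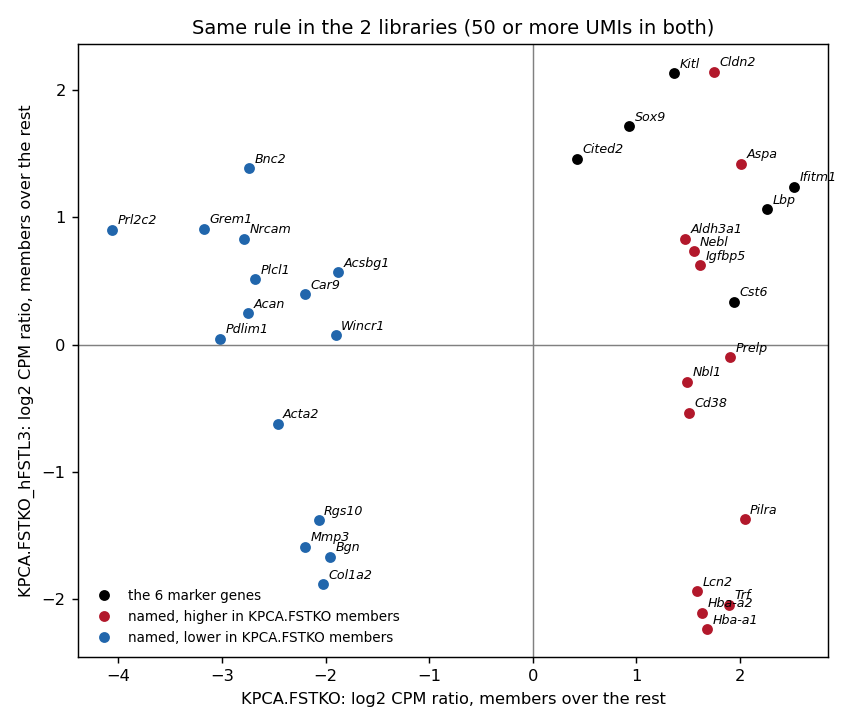
log2 CPM ratio of chosen over remaining gated cells in KPCA.FSTKO (x axis) and KPCA.FSTKO_hFSTL3 (y axis) for the 6 marker genes (black) and the named genes with 50 or more UMIs in the second library (red, higher, and blue, lower in KPCA.FSTKO). The 6 genes, which chose the cells, are above 0 in both, while Pilra, Trf, Lcn2, Hba-a1 and Hba-a2 lie below 0 in KPCA.FSTKO_hFSTL3.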

How the data were processed

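The authors dissociated the tumors with collagenase and DNase, made libraries with a 10x Genomics 3-prime kit and ran Cell Ranger against the mouse reference mm10 (GRCm38). Version 3.1.0 is given in the submitters' processing notes and 7.2.0 in the header of the matrices. The deposited values are raw UMI counts per gene and barcode, not normalized, for 32285 genes, with 168214773 UMIs in 7582 KPCA.FSTKO barcodes and 80391504 in 4244 KPCA.FSTKO_hFSTL3 barcodes, and the filters of the methods had not been applied in them.

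Barcodes with a mitochondrial share under 20% and 201 to 7999 genes were kept. The gate and the ranking followed the rule given in the report, and doublets were kept, since the methods name no doublet step. Counts were summed over the cells of each population (5947535 and 66758524 UMIs) and divided by their total, as CPM. Cells are not replicates, so no test was made. The step that counts genes was tested on simulated counts. The members and the gene lists were chosen with earlier results of these data known.

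Named genes are the 15 highest and the 15 lowest ratios among genes with at least 20 CPM in the higher population that stayed past 1.5 without the barcode holding most of their UMIs, leaving out gene models and mitochondrial genes. The 6 marker genes, genes of the gate, the study's genes and list members are named besides. Some genes that met the rule, and 1 allele of the line, are not reported here. Spp1, Stat3, Tlr4, B2m and other list members under the size were chosen after their values were seen. For clusters and neighbours, log-normalized counts, 2000 variable genes without the 6 genes, 10 principal components and 20 neighbours were used with Leiden clustering. Alternatives changed the size rule, scaling (TMM in edgeR, used for scaling alone), depth, gate, ranking and doublets (Scrublet scores), and 3 were added after the data were seen.

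Python 3.11.15 with numpy 2.4.6, scipy 1.17.1, pandas 2.3.3, scanpy 1.11.5 and scikit-learn 1.9.0, and R 4.3.3 with edgeR 4.0.16, were used.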

Additional observations from a re-analysis of the deposited data

Results flagged for a closer look

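Of the named genes reported here, 8 lay on opposite sides in the 2 libraries when the same rule chose the cells, and the difference between the libraries was not tested, since each genotype is 1 library. Higher in the KPCA.FSTKO cells and lower in those of KPCA.FSTKO_hFSTL3 were Pilra (log2 ratio there -1.37), Trf (-2.04), Lcn2 (-1.94), Hba-a1 (-2.24) and Hba-a2 (-2.11). Lower in KPCA.FSTKO and higher there were Grem1 (0.91), Nrcam (0.83) and Bnc2 (1.39). In the second library the summed macrophage genes were at 1216 CPM in the chosen and 4364 CPM in the remaining gated cells, and with macrophage and acinar genes under 0.1% of UMIs the log2 ratio was 0.31 for Bnc2 and 0.27 for Grem1, no longer past the size, and 1.57 for Nrcam. The higher genes then had too few UMIs. Leaving out cells with 2 or more markers of other types instead left 7 chosen cells. Bnc2 then had a log2 ratio of -0.39, not past the size, and Grem1 one of 0.31. Nrcam had 0 UMIs in the chosen and 93 in the remaining cells. Grem1, Nrcam and the higher genes had too few UMIs for the size rule there. Hba-a1 and Hba-a2 were higher in KPCA.FSTKO through 1 cell, without which hemoglobin was lower there too (19.3 against 128 CPM).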

How the results depend on the processing

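No paired analysis was possible because each genotype is 1 library. No sampling error between tumors can be given, the chosen cells are shallower than the other cancer cells, and genotype, library and RNA from other cells cannot be told apart between the libraries. Against 357 higher and 1411 lower genes, a ratio of at least 2 left 79 and 527, and a minimum of 20 UMIs gave 861 and 3329. Thinning to 5000 UMIs gave 213 and 753, the shallowest of 3 depth classes 183 and 532, the middle class 215 higher genes, and a ranking without Ifitm1 757 higher genes. The other alternatives for these counts, 2 of them added after seeing the data, gave 240 to 518 higher and 964 to 1932 lower genes. Ranked on one random part of the UMIs and read in the other part (50% each), the log2 ratio of the 6 genes' sum was 1.76 in place of 1.86. Chosen on the 5 other genes after thinning, the log2 ratio was 1.095 for Lbp, 0.57 for Ifitm1, 1.34 for Cst6, 0.22 for Sox9 and 0.39 for Kitl. In KPCA.FSTKO_hFSTL3, 38 and 134 genes kept their direction. Leaving out cells with 2 or more markers of other types left 7 chosen cells, and fewer genes could be compared. Of 31 genes higher in KPCA.FSTKO, 3 were then higher and 14 lower. Of 92 genes lower in KPCA.FSTKO, 43 were then lower and 9 higher. Over all genes 14.4% were higher and 31.2% lower in that setting. With macrophage and acinar genes under 0.1% of UMIs (added after seeing the data), 16 and 54 genes kept their direction, where fewer genes could be compared too.

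Hba-a1 was below 0 with the mean share over cells (-0.29), thinned cells (-0.026), the top 5% (-2.16), the split UMIs (-2.82), keratins at 0.3% or more (-2.80), the shallowest class (-6.24) and a ranking without Sox9 (-2.60). Hba-a2 was below 0 in the same settings (-0.36, -0.35, -1.86, -3.02, -5.53, -7.23 and -2.91). Lcn2 was at -0.56 with keratins at 0.3% or more and Nebl at -0.13 in a ranking without Ifitm1. The cause was not tested.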
